A study of Macaca mulatta with 5 samples.

Results

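A set of 8 genes, called the stem-cell-high genes here, was followed through a rhesus macaque culture: ACTG2, TAGLN, CNN1, CAV1, THY1, SPP1, PLAU and GPC4. They were picked by name because earlier results of the same arrays had shown a high signal in undifferentiated cells, so that pattern is a description and carries no test. They make up 8 of 14132 genes named on the array and 16 of its 52865 probe sets, a probe set being a group of probes read as 1 value. The cells were of embryonic stem cell line 366.4, all from this 1 line, and were led through 5 stages towards serotonin neurons. ESC were undifferentiated cells at passage 13 on a layer of mouse embryonic fibroblasts. EB were embryoid bodies, cell aggregates taken after 6 to 8 days. N1 were spheres kept 7 to 9 days in medium with N2 supplement, N2 were cells grown for a further 7 to 9 days with added FGF4, a growth factor, and N3 were cells left to mature without FGF4 in wells of reduced growth factor content. Each stage had 1 array, so every value is a single measurement, no difference has a replicate check, and no test was possible.

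ACTG2, TAGLN and CNN1 belong to the contractile machinery of smooth muscle, the involuntary muscle of gut, bladder and vessel walls. Actin filaments in such cells are pulled by myosin, and TAGLN and CNN1 bind and regulate those filaments. Many of these genes are switched on by serum response factor, and they are also active in cultured fibroblasts that spread on a stiff surface. CAV1 coats caveolae, small pits of the cell membrane, and THY1 is a membrane glycoprotein of fibroblasts and neurons. SPP1 (osteopontin) is a secreted protein that binds integrins, PLAU (urokinase) is a protease that activates plasminogen outside the cell, and GPC4 (glypican 4) is a heparan sulfate proteoglycan of the cell surface that binds growth factors.

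Signals are array intensities after each array was brought to the same trimmed mean, and values under 100 were treated as lying at a floor. All 42 spike-in controls for absent bacterial transcripts stayed below 100 on every array, the highest reaching 87.2 in ESC and 47.6 to 64.8 elsewhere. The ratio of the 3' to the 5' control probe set, which grows as RNA is degraded or copied short, ran from 1.73 in ESC to 25.21 in N2 for actin and from 1.69 in N1 to 7.1 in N2 for GAPDH. For EF1a, another control, it ran from 0.83 in N1 to 1.88 in N2. The pluripotency factor gene POU5F1 stood at 28621 in ESC and 14.7 in N3, and the neuronal gene DCX at 186 in ESC and 10607 in N3. Both matched the stage labels, whereas the pluripotency gene NANOG went the other way, at 1047 in ESC and 2155 in N3. Of the 16 probe sets, 15 reached 100 on at least 1 array, and all 15 were highest in ESC. The 16th, the remaining probe set of ACTG2, stayed between 3.4 and 33.5 on all arrays. ESC was at least 2-fold above every other stage for 8 of the 8 genes and for 582 of 11642 genes detected on any array (5.00%). The choice of the genes fixes the first of these counts.

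**Figure D1:**
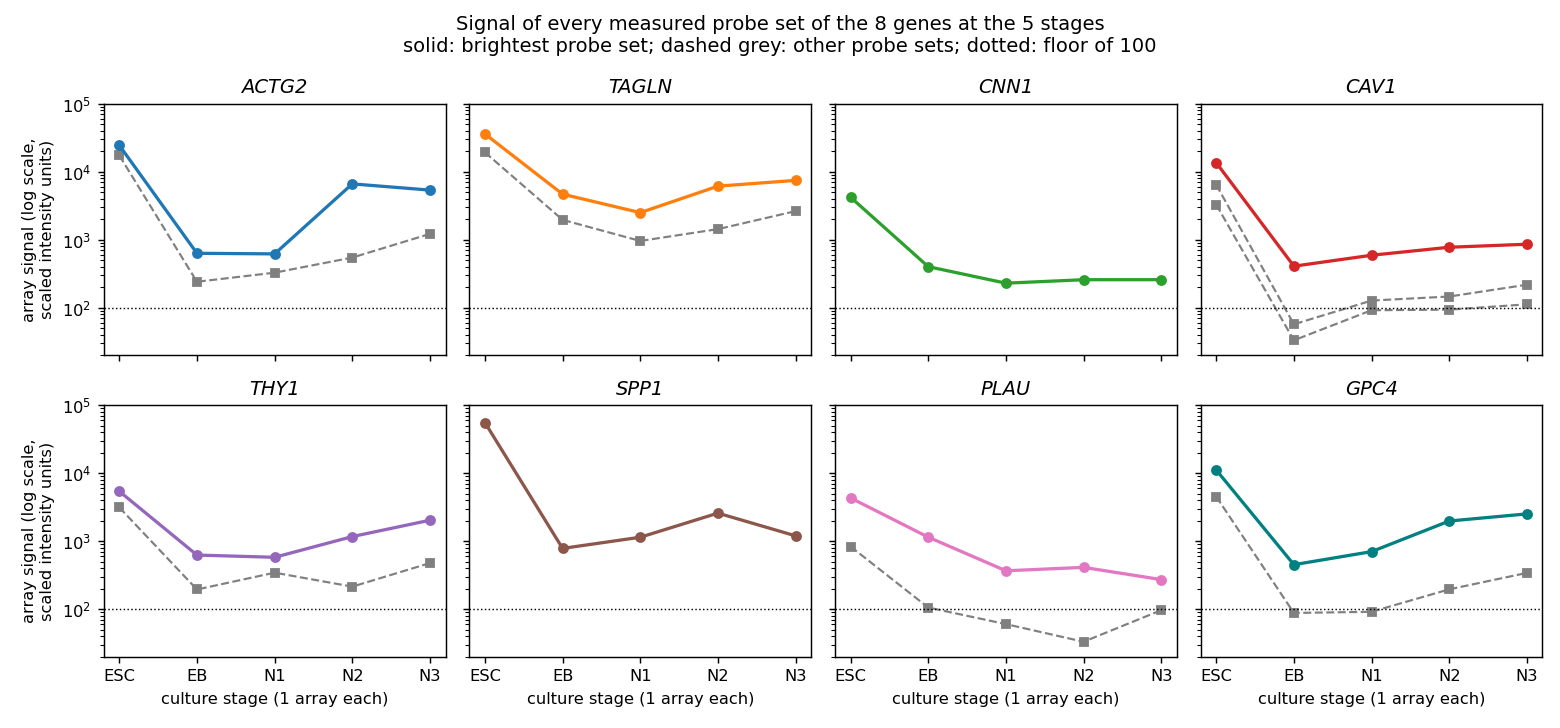
Array signal (log axis, scaled intensity units) of the 15 measured probe sets of the 8 genes at the 5 stages, 1 array each. Solid coloured lines are the brightest probe set of a gene, dashed grey lines its other probe sets, and the dotted line is the floor of 100. Each line starts at its highest point in ESC, and 8 of the 15 are lowest in EB.

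The smooth muscle genes were high in ESC and low in EB and N1, and only ACTG2 and TAGLN among them were higher again later. ACTG2, the smooth muscle gamma actin, read 24431 in ESC, then 628.6, 616.1, 6600 and 5346 in EB, N1, N2 and N3 on its brightest probe set. EB was thus 38.9-fold below ESC, and N2 lay 10.7-fold above N1. Its second probe set read 17342, 239.6, 326.0, 543.9 and 1213 in the same order. Both probe sets put EB far below ESC (log2 ratios of -5.28 and -6.18), but they disagreed on when the signal came back: N2 exceeded N1 by 3.42 on the log2 scale on the first and by 0.74 on the second, and N3 against N2 was -0.30 on the first and 1.16 on the second. Both again placed N3 above EB, by 8.50-fold and 5.06-fold.

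TAGLN (transgelin, an actin-binding protein) read 35825 in ESC, then 4660, 2492, 6112 and 7431 in EB, N1, N2 and N3. Its other probe set read 19232, 1952, 954.9, 1426 and 2623, so both had their lowest point in N1 and their second highest in N3. Both TAGLN probe sets carry a suffix in their names that marks possible binding to related transcripts. CNN1 (calponin 1), with a single probe set, read 4201 in ESC and 399.6 in EB, a 10.5-fold difference. It then stayed at 228.4 in N1, 256.9 in N2 and 257.1 in N3, with no return.

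CAV1 and THY1, the 2 membrane genes, were lowest in EB or N1 and higher again in N3, CAV1 from a lower share of its ESC signal. CAV1 read 13547 in ESC, then 406.3, 588.6, 771.5 and 854.6 in EB, N1, N2 and N3. Its other probe sets were 3268 and 6421 in ESC and below the floor in EB, which makes the difference there at least 32.7-fold and at least 64.2-fold, beside 33.3-fold on the brightest. In the 4 later stages CAV1 stayed at 3.0% to 6.31% of its ESC signal. THY1 read 5443 in ESC, then 627.7, 581.8, 1174 and 2044 in EB, N1, N2 and N3, which left N3 at 37.55% of ESC, the highest N3 share among the brightest probe sets of the 8 genes. The second THY1 probe set read 3156, 195.5, 345.6, 215.4 and 478.4. It moved against the first between N1 and N2, with a log2 ratio of -0.68 where the first had 1.01, while both lay above EB in N3 (3.26-fold and 2.45-fold).

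SPP1, PLAU and GPC4 act outside the cell or at its surface. SPP1 read 55894 in ESC, then 786.3, 1148, 2598 and 1203 in EB, N1, N2 and N3 on its single probe set. EB was 71.1-fold below ESC, the largest lower value among the 10978 genes measured in that comparison with signals floored at 100. N2 stood out among the later stages for SPP1, 2.26-fold above N1 and 2.16-fold above N3. PLAU read 4349 in ESC, then 1151, 368.4, 413.7 and 273.3 in EB, N1, N2 and N3. On the brightest probe sets, PLAU alone kept as much as 26.48% of its ESC signal in EB and was lowest in N3. Its dimmer probe set read 838.1 in ESC and 106.1 in EB and lay below the floor in N1, N2 and N3. That left 12.66% in EB, beside 13.01% for the brightest TAGLN probe set, so the difference was not seen there. GPC4 read 11210 in ESC, then 453.2, 704.9, 1989 and 2530 in EB, N1, N2 and N3. Its other probe set read 4544, 88.3, 91.9, 196.6 and 342.9, so the brighter GPC4 probe set read higher at each step from EB to N3, and the dimmer one, below the floor in EB and N1, did so from N1 on.

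In EB against ESC, 8 of the 8 genes were at least 2-fold lower in EB, where 11.8% of all measured genes were. Their log2 ratios ran from -6.15 for SPP1 to -1.92 for PLAU, with a median of -4.01 against -0.06 for all genes. That contrast was used to pick the genes, so nothing is read from the count. All 15 measured probe sets were at least 2-fold lower, and without probe sets whose names carry such a suffix, which leaves no value for TAGLN, the count was 7. The 8 genes were also at least 2-fold below ESC in N1 (11.0% of all genes), in N2 (17.1%) and in N3 (16.4%). These comparisons share the 1 ESC array, and none is independent of the others. ESC and EB also differed in the 3' to 5' control ratio for actin, at 1.73 and 15.19. The difference was smaller for GAPDH (1.94 and 2.78) and EF1a (0.86 and 0.96). What part these had in the gene differences was not tested. In whole-culture RNA, fewer cells of a type and less RNA per cell cannot be told apart.

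Technical spread could be had only from pairs of probe sets of the same gene. The SD of their difference in log2 ratio, scaled down to that of a single probe set, was 0.753 for EB against ESC. For the steps between neighbouring later stages it was 0.434 to 0.541. The unscaled difference between probe sets spreads wider. It is not a replicate spread. The step from ESC to the next highest stage, which the choice of the genes made large, was smallest for THY1, at 1.41. Of 32 neighbouring pairs in the genes' orders of stages, 8 of them the step from ESC, 13 lay within 1 such SD. Among those were N2 and N3 for ACTG2, TAGLN, CNN1, CAV1 and GPC4, and EB and N1 for ACTG2 and THY1. For SPP1, N3 and N1 were not separated, nor were N2 and N1, or N1 and N3, for PLAU.

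As a share of the ESC signal, the brightest probe sets of ACTG2, TAGLN, THY1 and GPC4 were at 20.74% or more in N3 and those of the other 4 genes at 6.31% or less. The other probe sets of the first 4 genes were at 6.99% (ACTG2), 13.64% (TAGLN), 15.16% (THY1) and 7.54% (GPC4). Those of CAV1 were at 3.41% and 3.38%, and that of PLAU, with a signal below the floor in N3, at 11.58%. On these probe sets CAV1 thus also lay below the first 4 genes, while PLAU lay within their range. CNN1 and SPP1 have no other probe set.

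**Figure D2:**
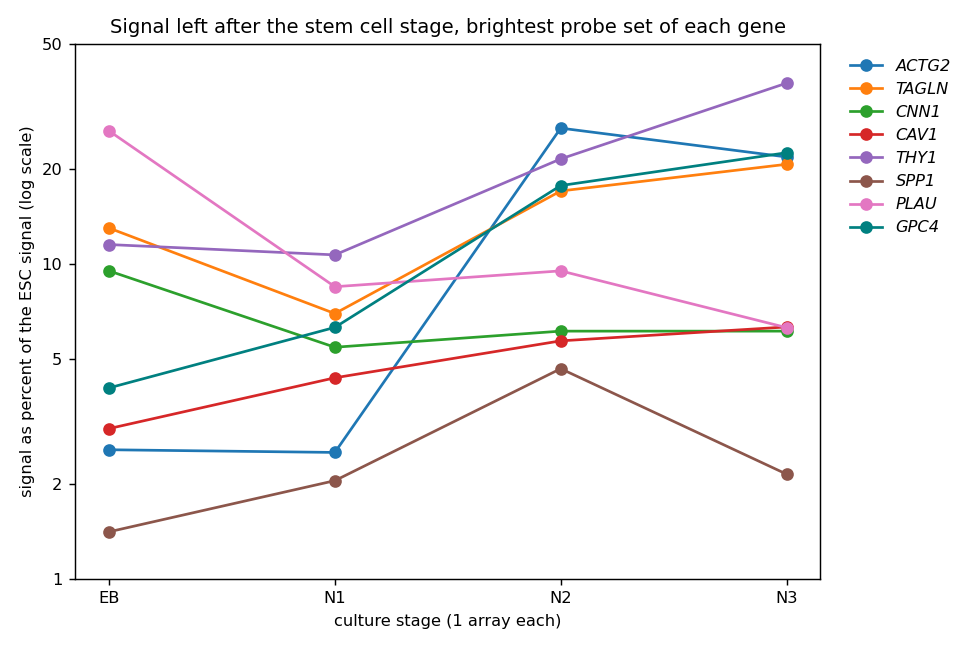
Signal of the brightest probe set alone of each of the 8 genes in EB, N1, N2 and N3 as a percentage of its own ESC signal (log axis), 1 array a stage. ACTG2, TAGLN, THY1 and GPC4 end between 20.74% and 37.55% in N3, while CNN1, CAV1, SPP1 and PLAU end between 2.15% and 6.31%.

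The steps after ESC did not enter the choice of the genes, but the EB array did, so a rise from EB was favoured in advance. From EB to N1, 0 of the 8 genes were at least 2-fold higher (5.15% of all measured genes) and 1 was lower (2.20%), PLAU by 3.13-fold. Its dimmer probe set, at 106.1 in EB and below the floor in N1, could not show a difference of that size. TAGLN and CNN1 also lay lower in N1, with log2 ratios of -0.90 and -0.81, and the second TAGLN probe set had -1.03. When the arrays were given equal medians instead, moving the median of all genes from -0.02 to -0.37, 3 genes were lower.

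From N1 to N2, when FGF4 was added, 5 of the 8 genes were at least 2-fold higher, against 5.06% of all measured genes, and 0 were lower (6.53%). They were ACTG2 (3.42 on the log2 scale), GPC4 (1.50), TAGLN (1.29), SPP1 (1.18) and THY1 (1.01). CAV1, CNN1 and PLAU had log2 ratios of 0.39, 0.17 and 0.17. The median of the 8 was 1.10 and that of all genes -0.04. The count depended on the probe set: it was 2 when each gene was the median over its probe sets, and of these genes SPP1 alone had every measured probe set past 2-fold, having just 1. The other GPC4 probe set gave at least 1.97-fold. The count was 1 after scaling to the hybridisation controls, which put the median of all genes at -0.57. N2 was also the array with the highest 3' to 5' control ratios, at 25.21 against 5.43 in N1 for actin and 7.1 against 1.69 for GAPDH, and the part of this in the result was not tested.

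Skeletal muscle genes were higher in N2 as well. Of 7 such genes measured, 5 were at least 2-fold higher in N2 than in N1 (5.06% of all genes) and 1 lower (6.53%), with a median of 1.21. Their summed signal was 1616 in N1, 7216 in N2 and 33230 in N3, against 897 in ESC and 1173 in EB. MYOD1, which defines the lineage, was below the floor in ESC, EB and N1 and at 221 in N2 and 322 in N3. ACTC1, the cardiac actin, which resembles ACTG2, read 10670 in ESC, then 9360, 5561, 8083 and 20334 in EB, N1, N2 and N3. ACTA2, the smooth muscle alpha actin, was not analysed here. How far the ACTG2 probe sets bind other actins was not tested.

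From N2 to N3, 0 of the 8 genes were at least 2-fold higher (4.78% of all genes) and 1 was lower (2.19%), which was SPP1 at -1.11. THY1 was 1.74-fold higher on its brightest probe set and 2.22-fold on the other. Over the whole span from EB to N3, a comparison added after the values were seen, 4 of the 8 genes were at least 2-fold higher, where 13.0% of all genes were. They were ACTG2 (8.50-fold), GPC4 (5.58-fold), THY1 (3.26-fold) and CAV1 (2.10-fold). Because the EB array entered the choice of the genes, a rise from EB was favoured in advance here too. With quantile normalisation or equal medians the count was 3, and CAV1 had log2 ratios of 0.85 and 0.68. For ACTG2, GPC4 and THY1 every measured probe set passed 2-fold, as an at-least value for the dimmer GPC4 one. PLAU was lower by 4.21-fold (11.2% of all genes were at least 2-fold lower), and SPP1, TAGLN and CNN1 had log2 ratios of 0.61, 0.67 and -0.64. In N3 the actin 3' to 5' ratio was 8.63 and in EB 15.19, and for GAPDH it was 2.10 and 2.78.

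**Figure D3:**
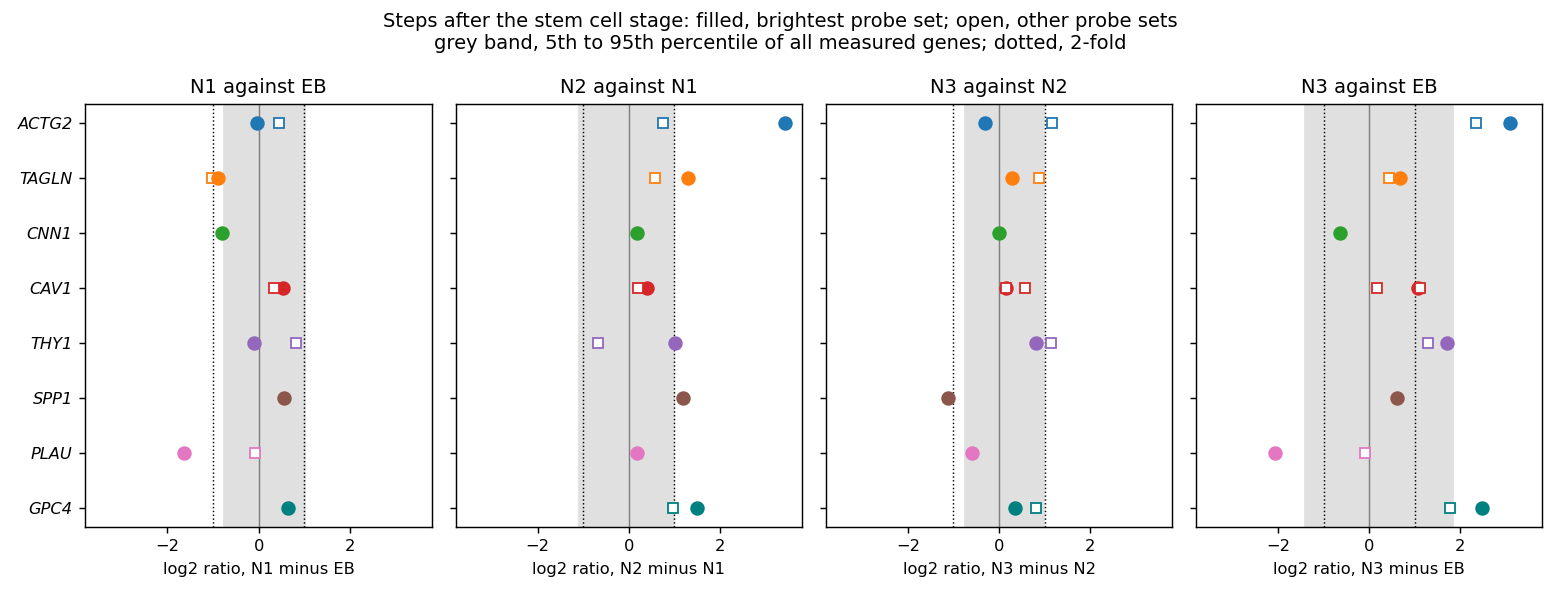
Log2 ratios of the 8 genes for N1 against EB, N2 against N1, N3 against N2 and N3 against EB. Filled circles are the brightest probe set, open squares the others, the grey band spans the 5th to 95th percentile of all measured genes, and dotted lines mark 2-fold. In N2 against N1 ACTG2 lies at 3.42 on its brightest probe set and 0.74 on its other.

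Most other measured smooth muscle genes were also lower in EB than in ESC. Of 22 genes on the list, 11 besides the stem-cell-high genes have a probe set, and 10 were measured in EB against ESC. Of those 10, 7 were at least 2-fold lower in EB (11.8% of all genes) and 1 was higher (12.1%). The median was -1.24, against -0.06 for all genes. MYH11, the smooth muscle myosin heavy chain, read 591 in ESC and 104 in EB (5.70-fold), and 22.3, 172 and 125 in N1, N2 and N3. The EB value lay close to the floor, and other MYH11 probe sets gave log2 ratios of -1.82 and -0.46 for EB against ESC. MYL9, a myosin light chain, read 8800 and 2277 (3.86-fold) and stayed between 2015 and 2862 later. FLNA (filamin A, an actin crosslinker) was 3.47-fold lower and CALD1 (caldesmon) 2.47-fold, reading 29608 in ESC and 11979 in EB. TPM2, a tropomyosin, was 2.27-fold lower, though its other measured probe sets ran from -3.63 to 1.97. TPM1 stood at 19023 in ESC and 28379 in EB. MYOCD, the coactivator that drives smooth muscle genes, went the other way, at 136 in ESC, 327 in EB and 439 in N3. The lower count was 4 with equal medians, which put the median of all genes at 0.41, and 5 when each gene was the median over its probe sets. SRF and MYLK were not analysed here.

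Known targets of serum response factor and of the YAP coactivator, both of which respond to cell spreading, had 6 of 11 measured genes at least 2-fold lower in EB and 0 higher (median -1.11), beside 11.8% and 12.1% of all genes and their median of -0.06. CCN2, a matrix-associated growth regulator, read 28675 in ESC, then 1889, 1648, 5628 and 4633 in EB, N1, N2 and N3. Its remaining probe sets gave ratios of 0.94 and 0.44 (log2) for EB against ESC. CCN1 was 6.88-fold lower and THBS1 (thrombospondin 1) 8.89-fold lower, whereas AMOTL2 read 8182 and 7466 and FOS 353 and 379. MYL9 is on this list too.

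The partners of the other 5 genes were mixed. Over all measured genes, 11.8% were at least 2-fold lower in EB than in ESC and 12.1% higher. Among caveola genes CAVIN2 was 2.09-fold lower in EB (1140 and 546), PACSIN2 read 2463 and 3014 (its further probe sets gave -0.65 and -2.00 on the log2 scale), and EHD2 lay below the floor on both arrays. That made 1 of 3 measured genes lower and 0 higher (median 0.29), and the lower count was 0 with equal medians and with hybridisation controls. CAV2 was not analysed here. In the plasminogen list 3 of 10 measured genes were lower and 2 higher (median 0.32). PLAUR, the urokinase receptor, read 766 in ESC and 215 in EB (3.56-fold lower) and 263 to 412 later. The inhibitor TIMP3 was 4.24-fold lower, PLGRKT 2.76-fold higher, SERPINE2 read 7127 and 14007, and plasminogen itself (PLG) was at least 33.6-fold higher. PLAT was not analysed here.

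Among the integrins and CD44, to which osteopontin binds, and its sister proteins, 1 of 6 measured genes was lower in EB (11.8% of all genes). There 0 were higher (12.1%), and the median was -0.62. The lower gene was ITGB1, the integrin beta 1 chain, at 5565 in ESC and 347 in EB (16.1-fold) and 250 to 1043 later. Without probe sets marked for related transcripts the lower count was 0. ITGAV read 817 and 718, and CD44 201 and 101. Of 8 other glypicans and syndecans, 3 were higher in EB and 0 lower (median 0.40), against 12.1% of all genes higher. GPC3 was 3.24-fold higher (1588 and 5140) and GPC6 2.79-fold higher (2501 and 6978), though a second GPC6 probe set gave -0.78 (log2). The count of higher genes was 0 when each gene was the median over its probe sets. GPC2 resembled GPC4 in its later course, reading 201, 404, 924 and 1520 from EB to N3, but stood at 341 in ESC.

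**Figure D4:**
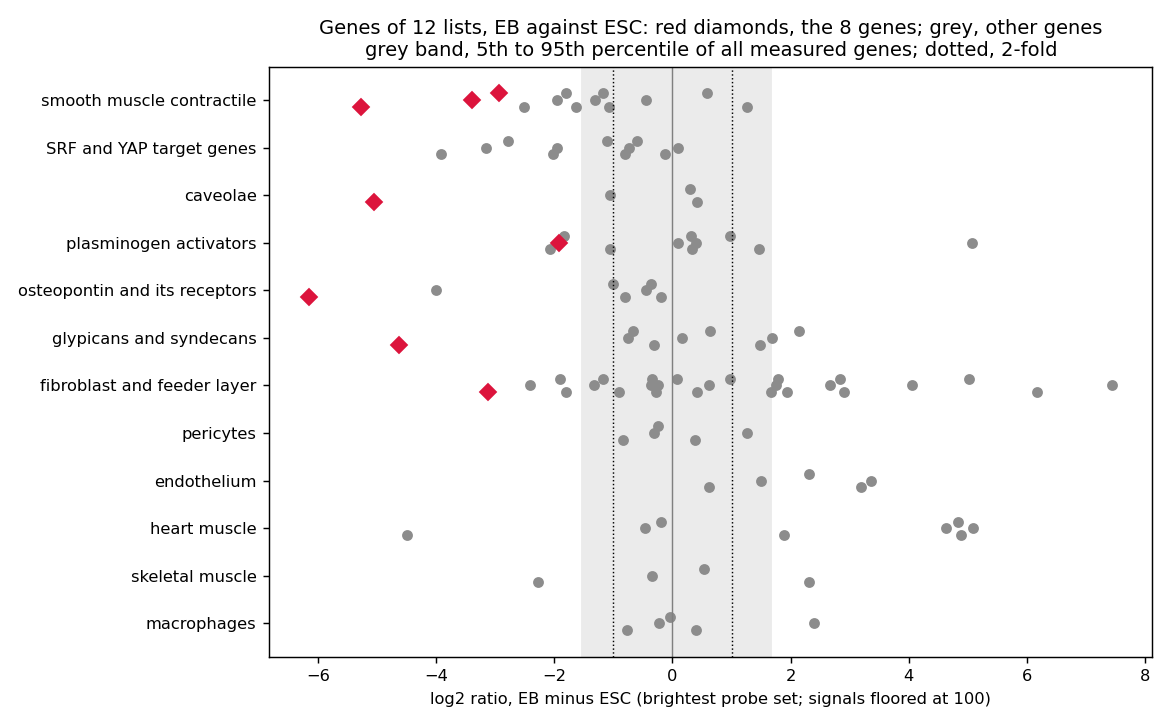
Log2 ratios of EB against ESC for the measured genes of 12 lists (brightest probe set, signals floored at 100). Red diamonds are the 8 stem-cell-high genes and grey circles the other genes, the grey band spans the 5th to 95th percentile of all measured genes, and dotted lines mark 2-fold. Smooth muscle genes lie mostly left of 0, whereas the fibroblast list spreads from -3.12 for THY1 to 7.45 for LUM.

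Because ESC grew on mouse fibroblasts, fibroblast genes were set beside the 8 genes. They were split. Of 25 measured fibroblast and feeder layer genes other than THY1, 5 were at least 2-fold lower in EB and 11 higher (median 0.62), where 11.8% and 12.1% of all genes were. With equal medians 3 were lower. Their summed signal was 158897 in ESC and 169755 to 227126 in the later stages. The lower ones were COL3A1 (533 in ESC and 100 in EB), S100A4 (992 and 267), COL1A2 (3312 and 944), LGALS1 (12105 and 4799) and COL5A2 (18100 and 7992). COL5A2 had other probe sets at log2 ratios of 2.66, 0.76 and -2.85. COL1A1 read 4635 in ESC and 3604 in EB, and VIM 35324 and 18920. Other genes of the list were high in ESC, among them FN1 (19540 in ESC and 38381 in EB) and COL6A1 (3028 and 10204). Their other measured probe sets went the other way, with log2 ratios of -0.74 for FN1 and -0.21 and -2.33 for COL6A1. The 5 of the 25 genes below the floor in ESC were LUM (46.0 in ESC and 17532 in EB), DCN (13.8 and 7189), PRRX1 (24.2 and 3267), FAP (9.35 and 716) and TNC (68.9 and 753). COL6A3 read 457 and 7583, and FBN1 428 and 2725, though the gene's remaining measured probe sets gave 0.69 and -1.64 (log2). PDGFRB was not analysed here. The array was designed for rhesus transcripts, and how its probe sets read mouse RNA was not tested, either for these genes or for the 8.

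Markers of other cell types were set beside the 8 genes in the same way. For all measured genes, the shares at least 2-fold higher and lower in EB than in ESC were 12.1% and 11.8%. Of 5 measured pericyte genes, cells of the vessel wall, 1 was higher in EB and 0 lower, and their summed signal lay between 5062 and 8371 at all stages. Endothelial genes were higher in EB for 4 of 5 and lower for 0, with a summed signal of 3638 in ESC and 11758 in EB. Most of that sum was TEK (3070 and 8706), whose other probe set gave a log2 ratio of -1.53, and a second CDH5 probe set gave 0.13. Heart muscle genes were higher for 5 of 8, HAND1 (240 in ESC and 8193 in EB) and MYL7 (324 and 9531) among them. The 1 lower was NPPB, a natriuretic peptide gene that read 3726 in ESC and 165 in EB. Skeletal muscle genes were higher for 1 of 4 and lower for 1. Macrophages can make much osteopontin. Of the 5 of 8 macrophage genes measured in EB against ESC, 1 was higher and 0 lower, their list summed to 936 in ESC and 1298 in EB, and PTPRC, LYZ and TYROBP did not reach 100 on either array. The macrophage genes above the floor in ESC were CD68 (310 in ESC and 299 in EB), AIF1 (239 and 141) and CSF1R (118 and 74.3). Their part in the SPP1 signal was not tested. Endoderm genes were higher for 5 of 8 and lower for 1.

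Genes with the most similar course over the 5 stages were found by the distance between log2 profiles centred on their means, among 9768 genes reaching 200 on any array. The distance is a description over 5 arrays and used signals floored at 100. Among the neighbours named below, DPPA4 and ZSCAN10 lay under that floor in EB, N1, N2 and N3. VRTN did so in N1, N2 and N3, VTCN1 in EB, N1 and N3, LOC699924 in N2 and N3, and MROH1 in EB. THY1 lay nearest to 2 thrombospondin genes, THBS1 (distance 0.30) and THBS2 (0.33), followed by RGS16 (0.41). THBS1 read 3185 in ESC, then 358, 285, 767 and 1204 in EB, N1, N2 and N3. CNN1 was closest to the DNA methyltransferase gene DNMT3B (0.27), which read 16813, 2007, 1067, 1191 and 1294, and then to VRTN and LOC699924 (both 0.33). TAGLN was nearest to SEL1L3 (0.38), the amino acid transporter gene SLC7A3 (0.43) and JARID2 (0.54), a chromatin regulator gene. ACTG2 and GPC4 shared MROH1 as a neighbour (0.88 and 0.82). The other neighbours of ACTG2 were GPC4 itself (1.46) and VGF (1.49), and those of GPC4 were RGS20 (0.80) and CCN2 (0.87). CAV1 lay nearest to VTCN1 (0.84), NFE2L3 (0.85) and ZSCAN10 (0.88). PLAU was nearest to AP1S2 (0.69), the WNT receptor gene FZD5 (0.72) and the transcription factor gene TFAP2C (0.73). SPP1 had no close neighbour, with the pluripotency-associated gene DPPA4 at 1.26 and VTCN1 and CAV1 both at 1.27. Among the 8 genes themselves TAGLN and THY1 were closest (0.85) and ACTG2 and PLAU farthest apart (4.38).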

How the data were processed

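The authors deposited linear array intensities, with 1 value for each probe set on each array. Per the submitters' processing notes they came from GCOS 1.0; the algorithm is not given in the sources used here. The trimmed mean of the deposited intensities (2% off each end) was 199.1 to 199.3 on the 5 arrays. For analysis the arrays were brought to a trimmed mean of 500 over all but the 158 control probe sets, values under 100 were set to 100, and log2 was taken. Printed signals are before the floor. Where 1 of the arrays was at the floor the ratio is a bound ("at least"). Probe sets were named from GEO's platform annotation, which can be old. Each gene was represented by its brightest probe set (mean log2 over the 5 arrays), and was measured in a comparison when at 100 or more on either array.

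The 8 genes and the 15 gene lists (207 genes, 151 with a probe set) were chosen with earlier results of these data known. Genes to be named were the 8, a fixed set of partners, the 2 with the largest difference each way per list in EB against ESC (100 or more on both arrays and 200 on the brighter), and the 3 nearest profiles per gene. Not all of these are printed here. FLNA, CCN1, AMOTL2, PLG, EHD2, LUM, DCN, PRRX1, FAP, TNC, LGALS1, COL5A2, MYOD1, ACTC1, FN1, COL6A1, TEK, CDH5, CSF1R, PTPRC, LYZ, TYROBP and TUBB3 were named after their values were seen. The annotation's identifier for TAGLN was not in the RefSeq gene table used, where the symbol has another one; the other 7 matched. Scripts ran in Python 3.11.15 with pandas 2.3.3 and were tested on simulated data. The number of arrays limits the precision.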

Additional observations from a re-analysis of the deposited data

How the results depend on the processing

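All 8 genes were highest in ESC and at least 2-fold below it in EB, N1, N2 and N3 under the 4 other scalings, the 3 other floor settings and the median over all probe sets of each gene. At 4-fold, N1 against ESC kept a count of 8 and the other 3 comparisons had 7. Without probe sets whose names mark possible binding to related transcripts, TAGLN has no value and each count was 7. Of 568 ratios of single genes recomputed, 535 moved by less than the spread between probe sets of a gene, 33 moved by more, and 0 of those past 2-fold changed sign.

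Counts for the later steps were less steady. For N2 against N1 the 5 higher genes became 1 with hybridisation controls, 2 with the probe set median and 1 at 4-fold. For N1 against EB the higher count of 0 became 2 with hybridisation controls, and the 1 lower gene became 3 with equal medians, 2 after quantile normalisation, and 0 both at 4-fold and with the probe set median. For N3 against N2 the higher count of 0 became 1 with hybridisation controls and 1 with the probe set median, and the 1 lower gene became 0 with hybridisation controls and 0 at 4-fold. For N3 against EB, where all alternatives were chosen after seeing the data, the 4 higher genes became 3 with quantile normalisation, 3 with equal medians and 2 at 4-fold, and the 1 lower gene became 2 with equal medians. The 70 listed genes past 2-fold in EB against ESC became 39 at 4-fold. Apart from the scaling and probe set effects these settings are built to make, the cause was not tested. No paired analysis was possible because each stage has 1 array. Precision is limited by that number, and signals near 100 lie close to the highest negative control of ESC.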

Other observations

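Some neuronal genes were also lower in EB than in ESC and higher again later. SYT1, a synaptic vesicle calcium sensor gene, read 4177 in ESC, then 329, 530, 1768 and 2985 in EB, N1, N2 and N3. L1CAM, a neuronal adhesion gene, read 2239, 286, 451, 2140 and 2787, and its other probe set gave a log2 ratio of -0.81 for EB against ESC. TUBB3 read 3684, 663, 2852, 1819 and 7590 in the same order. The other TUBB3 probe sets gave log2 ratios of -2.53, 0.16 and -0.43 for EB against ESC. In the neuron list as a whole 3 of 9 measured genes were at least 2-fold lower in EB than in ESC (11.8% of all genes). Another 3 were higher (12.1%), and the median was -0.27. From EB to N3, 8 of 10 neuron genes were higher (13.0% of all genes) and 0 lower (11.2%), with a median of 3.40. Of 10 measured pluripotency genes 5 were lower in EB than in ESC (11.8% of all genes) and 0 higher (12.1%), with a median of -0.72. SALL4 read 2395 in ESC and 2892 in EB, and NANOG 1047 and 1178.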
